A study of Mus musculus with 69 samples.

Results

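The mRNAs of 10 beta and gamma subunits of heterotrimeric G proteins were measured on ribosomes of parvalbumin (PV) interneurons and Camk2a-expressing neurons of mouse cortex. These members were the 7 gamma subunits Gng2, Gng3, Gng4, Gng5, Gng7, Gng12 and Gng13 and the 3 beta subunits Gnb1, Gnb4 and Gnb5, picked by symbol from 17634 genes in the count table. Gng4 had been picked because it was higher in KO, so its KO and WT values are a description without a test. All 10 members were in the table and passed the filter on low counts in every comparison.

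G protein-coupled receptors act through a trimer of an alpha, a beta and a gamma subunit. On activation the alpha subunit separates from the tightly bound beta-gamma dimer, and both signal. Free beta-gamma dimers open GIRK potassium channels, slow presynaptic calcium channels, act on the SNARE machinery of release and recruit receptor kinases, which is how many modulators quiet cortical neurons and their terminals. The gamma subunit carries a lipid, added at a cysteine near its end, that holds the dimer at the membrane. Gnb5 is set apart from the other beta subunits, since it mainly pairs with RGS proteins of the R7 group.

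The mice were 70 to 100 days old. They carried Rpl22 with a Cre-dependent HA tag on both alleles and Cre under the Pvalb or the Camk2a promoter (the lines PV-Cre-Rpl22HA/HA, for PV neurons, and Camk2a-Cre-Rpl22HA/HA), and in each line either lacked Fmr1 (KO) or were WT. Fmr1 encodes FMRP, an RNA-binding protein, and its silencing causes fragile X syndrome in humans. Immunoprecipitation of the tag recovers ribosome-bound mRNA of the Cre cells with some RNA of other cells, from V1 (primary visual cortex) and S1 (primary somatosensory cortex) of the same brain. PV libraries came from 10 KO and 10 WT mice in V1 and 10 KO and 10 WT mice in S1. Camk2a libraries came from 6 KO and 8 WT mice in V1 and 7 KO and 8 WT mice in S1, and 32 of the 37 animals gave both areas. The 2 classes came from different lines, so class and line cannot be told apart. Each library was 1 animal. In KO against WT and in PV against Camk2a, p-values measure the spread between animals. In V1 against S1 and in V1 minus S1 effects, the 2 libraries of an animal entered as separate, unless a fit with the animal as a block is named.

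Totals ranged from 27.64 M to 49.11 M estimated counts over the 69 libraries. Fmr1 reached at most 16.05 CPM (counts scaled to a fixed library total) in a KO library and at least 38.6 CPM in a WT library. All 12 PV interneuron markers were higher in PV than in Camk2a libraries and all 10 excitatory markers lower, in KO and WT and in both areas. The libraries of animals C3, C18 and C19 held more PV marker mRNA than any other Camk2a library. An area score, built for each genotype from genes that differed between V1 and S1 in the other genotype, put 8 of 69 libraries on the side of the other area. Both libraries of the PV animals P9 (KO) and P22 (WT) and of the Camk2a WT animal C24 were among these 8. The V1 library of P24 (PV KO) and the S1 library of P8 (PV KO), which sat 0.01 past the midpoint, were the others. The S1 library of C24 was also the only one labelled Batch 2. Labels were kept, and results that rest on these animals, apart from P8, are given with and without them. P8 was not left out for its area score.

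The coding sequences below are those of Gng4, the member higher in KO, of Gng2, its nearest relative here, and of Gng5 and Gng7, the members higher in PV neurons. Capitals mark the last 12 coding bases before the stop codon, which encode the box that begins with the lipid-bearing cysteine. Each sequence is the principal transcript of the GENCODE M21 annotation of mm10, read 5′ to 3′ from start to stop codon.
Gng4: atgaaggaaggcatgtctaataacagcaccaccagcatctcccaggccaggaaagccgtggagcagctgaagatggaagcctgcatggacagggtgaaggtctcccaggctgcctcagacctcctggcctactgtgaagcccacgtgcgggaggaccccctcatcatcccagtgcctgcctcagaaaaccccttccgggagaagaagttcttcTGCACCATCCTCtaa
Gng2: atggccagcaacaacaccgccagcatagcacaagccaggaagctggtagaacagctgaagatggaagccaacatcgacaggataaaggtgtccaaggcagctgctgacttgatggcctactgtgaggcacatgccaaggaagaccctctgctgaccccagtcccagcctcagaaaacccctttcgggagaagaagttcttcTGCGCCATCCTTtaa
Gng7: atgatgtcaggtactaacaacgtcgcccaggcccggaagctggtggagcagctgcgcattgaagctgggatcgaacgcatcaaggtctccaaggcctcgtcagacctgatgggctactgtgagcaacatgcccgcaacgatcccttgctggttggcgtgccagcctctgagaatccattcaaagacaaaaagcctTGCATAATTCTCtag
Gng5: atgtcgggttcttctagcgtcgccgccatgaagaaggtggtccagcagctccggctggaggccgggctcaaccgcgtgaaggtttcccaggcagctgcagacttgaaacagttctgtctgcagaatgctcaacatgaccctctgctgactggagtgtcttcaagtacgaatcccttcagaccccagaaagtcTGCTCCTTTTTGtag
The Gng4 and Gng2 coding sequences were identical at 77.8% of aligned bases and those of Gng4 and Gng12 at 71.0%. Gng4 and Gng5 matched at 56.5%. The similarity did not extend to shared reads, since no stretch of 31 bases was common to transcripts of any pair of members. Other genes did share such stretches with some members. Gng13 shared 46.16% of its 31-base stretches with Chtf18, Gng3 shared 22.81% with Bscl2 and Gng2 shared 20.42% with other genes, mainly Gm48283. These neighbours overlap the members on the opposite strand, the library kit was not stated to keep strand, and reads from the overlaps cannot be told apart. For Gng4 the share was 1.96%.

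On mm10 the members lie apart. Gng2 is on chromosome 14 from 19872559 to 19977627, Gng3 on chromosome 19 from 8836933 to 8839194 and Gnb4 on chromosome 3 from 32580332 to 32616585, each on the minus strand. Gng7 is on the minus strand of chromosome 10 from 80948624 to 81014945. Gng5 is on chromosome 3 from 146499807 to 146505572, Gng12 on chromosome 6 from 66896397 to 67021350 and Gng13 on chromosome 17 from 25717171 to 25719406, each on the plus strand. Gnb1 is on chromosome 4 from 155491361 to 155559269 and Gnb5 on chromosome 9 from 75306288 to 75345876, also on the plus strand.

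Gng3 was the most abundant gamma subunit mRNA per length and Gnb1 the most abundant beta subunit. In CPM per kb of exon, Gng3 stood at 121 ± 12.2 in PV KO V1 and 122 ± 23.2 in PV WT V1 libraries (SD, n = 10 each). Gnb1 stood at 158 ± 8.35 in PV KO V1 and 150 ± 9.77 in PV WT V1 libraries (SD, n = 10 each). Gng3 encodes a gamma subunit typical of neurons, and Gnb1 encodes the widely used beta 1 subunit.

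The 2 classes differed in what stood behind Gng3 in the summed CPM per kb of the gamma subunits. In PV WT V1 libraries Gng3 made up 61.8% ± 4.29, Gng7 19.4% ± 2.39 and Gng2 10.6% ± 1.76 of that sum (SD, n = 10). In Camk2a WT V1 libraries Gng3 made up 63.3% ± 1.74, Gng2 17.8% ± 1.19 and Gng7 5.02% ± 1.62 (SD, n = 8). Gng7 thus ranked second in PV neurons and Gng2 second in Camk2a neurons, also when coding length or no length was used. Gng13 held 3.83% in PV and 4.33% in Camk2a WT V1 libraries. Among the beta subunits Gnb1 held 61.8% in PV and 55.0% in Camk2a WT V1 libraries, Gnb5 20.3% and 19.6%, Gnb2 17.7% and 24.7%, and Gnb4 0.265% and 0.703%. Gnb2 is a beta subunit outside the 10 members. Gnb3 and Gngt1 were not analysed here.

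**Figure D1:**
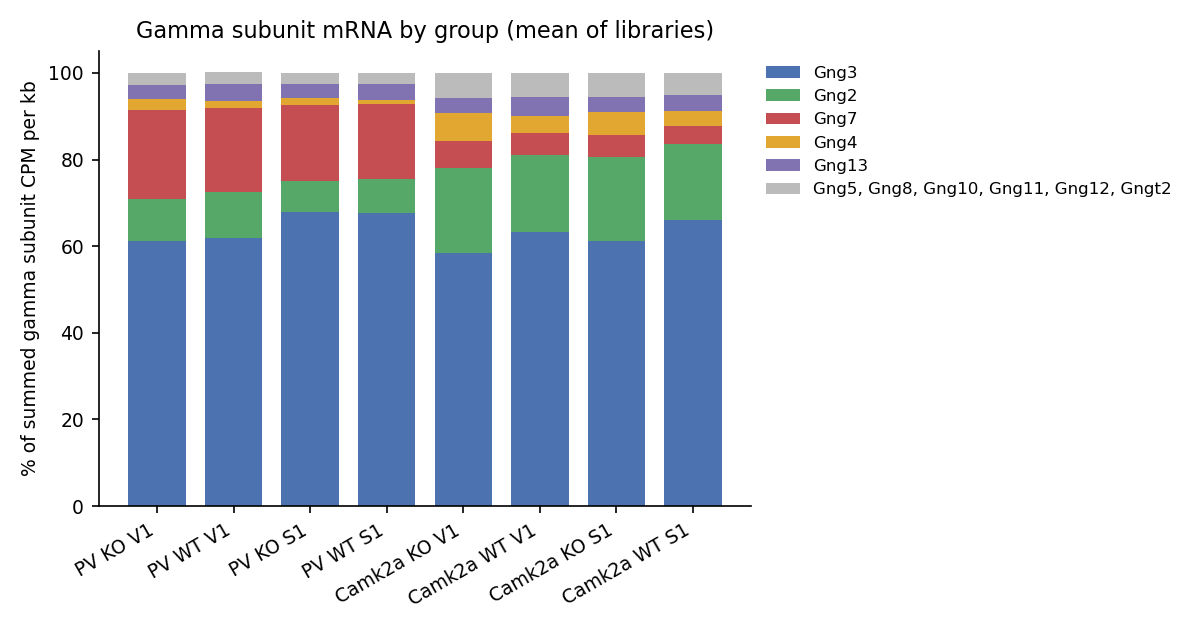
Stacked bars of each gamma subunit's mean share (%) of the summed gamma subunit CPM per kb of exon, by class, area and genotype. Gng3 fills most of every bar, Gng7 is the next largest block in PV and Gng2 in Camk2a libraries.

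Gng4 lay higher in KO than in WT in both classes and both areas. Gng4 encodes the gamma 4 subunit and lies on chromosome 13 from 13784059 to 13827896 on the plus strand (mm10, ENSMUSG00000021303). In V1, PV KO libraries held 9.15 to 29.8 CPM with a median of 16.4, and PV WT libraries 5.14 to 14.1 CPM with a median of 12.3 (n = 10 each). In S1, PV KO libraries held 8.31 to 14.6 CPM with a median of 11.1, and PV WT libraries 4.47 to 12.2 CPM with a median of 5.205 (n = 10 each). In V1, 9 of 10 KO libraries lay above the WT mean and the ranges overlapped. In S1 all 10 KO libraries did, and the 1 WT library inside the KO range was that of P22, the other WT libraries reaching at most 5.66 CPM. Fewer cells of a type and less RNA per cell cannot be told apart in such bulk libraries.

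The Camk2a neurons held several times more Gng4 and showed the same direction. In V1, Camk2a KO libraries held 40.4 to 70.2 CPM with a median of 57.9 (n = 6), and Camk2a WT libraries 28.7 to 45.2 CPM with a median of 37.4 (n = 8). In S1, Camk2a KO libraries held 32.4 to 52.4 CPM with a median of 49.1 (n = 7), and Camk2a WT libraries 26.9 to 39.2 CPM with a median of 35.6 (n = 8). The ranges overlapped in both areas, with 6 of 6 KO libraries above the WT mean in V1 and 6 of 7 in S1.

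**Figure D2:**
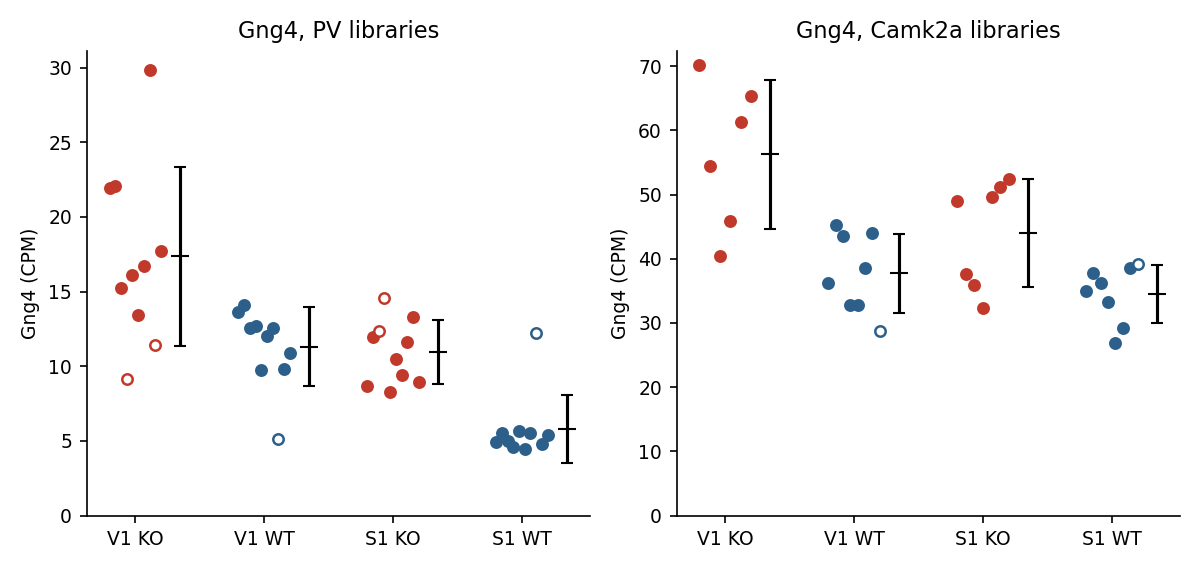
Gng4 in CPM for each library, KO left of WT within V1 and S1, for PV (left panel) and Camk2a (right panel), with mean and SD beside the points. Open points are libraries on the other area's side of the area score. In PV S1, all KO points lie above 8 CPM and all WT points but the open one lie below 6 CPM.

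As log2 fold changes of KO over WT, these values came to 0.59 (SE 0.187) in PV V1, 0.90 (SE 0.153) in PV S1, 0.54 (SE 0.124) in Camk2a V1 and 0.34 (SE 0.114) in Camk2a S1. With the V1 and S1 counts of each animal summed, which does not depend on the area labels, the PV groups stood apart. The 9 PV KO animals held 11.8 to 20.2 CPM with a median of 13.05, and the 10 PV WT animals 7.38 to 9.68 CPM with a median of 8.47, so the lowest KO animal lay above the highest WT animal. Of all genes, 0.245% had PV animals of KO and WT that did not overlap in either direction. Gng4 was picked for its difference between KO and WT, so this share is no test of it. The log2 fold change was 0.71 (SE 0.0862), or 1.64-fold, in PV. The 6 Camk2a KO animals held 38.1 to 59.5 CPM with a median of 51.1, and the 7 Camk2a WT animals 29.8 to 41.3 CPM with a median of 33.8. All 6 KO animals lay above the WT mean, the ranges overlapped, and the log2 fold change was 0.46 (SE 0.117), or 1.38-fold. The PV effect exceeded the Camk2a effect by 0.25 (SE 0.149).

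Gng4 took up more of the gamma subunit sum in KO. Its share was 2.63% ± 0.765 in PV KO V1 and 1.76% ± 0.49 in PV WT V1 libraries, and 1.66% ± 0.262 in PV KO S1 and 0.922% ± 0.243 in PV WT S1 libraries (SD, n = 10 each). In Camk2a V1 it was 6.44% ± 1.58 in KO (n = 6) and 3.93% ± 0.516 in WT (n = 8), and in Camk2a S1 5.32% ± 1.05 in KO (n = 7) and 3.43% ± 0.661 in WT (n = 8).

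The mean CPM of Gng4 fell in the order Camk2a KO V1 (56.2 ± 11.6), Camk2a KO S1 (44.0 ± 8.40), Camk2a WT V1 (37.7 ± 6.11), Camk2a WT S1 (34.5 ± 4.46), PV KO V1 (17.4 ± 5.99), PV WT V1 (11.3 ± 2.62), PV KO S1 (10.97 ± 2.13) and PV WT S1 (5.82 ± 2.29), with SD over libraries. Camk2a KO S1 and WT V1, Camk2a WT V1 and WT S1, and PV WT V1 and KO S1 were neighbours that differed by less than the larger of their SDs.

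Marker levels beside these values were as follows. Of all genes, 1.36% passed between KO and WT in PV and 4.11% in Camk2a animals with areas summed. In PV animals, 0 of 10 excitatory markers passed the test between KO and WT with the areas summed, and their median log2 fold change was 0.01. Their summed level was 1332 to 2153 CPM in PV KO V1 and 1294 to 2464 CPM in PV WT V1 libraries, and 1239 to 1774 CPM in PV KO S1 and 1253 to 1524 CPM in PV WT S1 libraries. In Camk2a animals, 11 of 12 PV interneuron markers were lower in KO, with a median of -1.06, and 0 of 12 passed the test. Their summed level was 254 to 718 CPM in Camk2a KO V1 and 284 to 1414 CPM in Camk2a WT V1 libraries, and 349 to 1352 CPM in Camk2a KO S1 and 280 to 1824 CPM in Camk2a WT S1 libraries. Markers of other cell types were also called in Camk2a animals with areas summed, all lower in KO, with 2 of 10 astrocyte markers (Aldoc and Aldh1l1), 1 of 10 oligodendrocyte markers (Mbp) and 1 of 11 vascular markers (Tagln). The medians of these lists were 0.05, -0.18 and 0.07. Summed oligodendrocyte markers stood at 217 to 335 CPM in Camk2a KO V1 and 270 to 419 CPM in Camk2a WT V1 libraries, and 202 to 331 CPM in Camk2a KO S1 and 290.1 to 475 CPM in Camk2a WT S1 libraries. In PV animals with areas summed, 1 oligodendrocyte marker (Ugt8a) was called lower in KO and 1 vascular marker (Col1a1) higher. No marker of these lists was at 0 throughout, and their part in the differences between KO and WT was not tested. Without C3, C18 and C19 the Gng4 log2 fold change in Camk2a was 0.37, and without P9, P22 and P24 it was 0.78 in PV.

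None of the other 9 members passed the adjusted test between KO and WT in any of 6 comparisons. A gene passed at an adjusted p under 0.05 in edgeR's quasi-likelihood test with Benjamini-Hochberg adjustment over all genes. By that rule 0.191% of all genes passed in PV V1, 0.77% in PV S1, 1.4% in Camk2a V1, 4.09% in Camk2a S1, and 1.36% in PV and 4.11% in Camk2a with both areas summed. At an unadjusted p under 0.05 the members numbered 0 in PV V1, 0 in PV S1, 2 in Camk2a V1, 4 in Camk2a S1, and 1 in PV and 2 in Camk2a with areas summed. No share of all genes at that unadjusted rule is given here, so nothing is read from these counts. DESeq2 called 0 in PV V1, 0 in PV S1, 1 in Camk2a V1, 1 in Camk2a S1, and 0 in PV and 2 in Camk2a with areas summed. Over all genes it called 113 (PV V1) to 1713 (Camk2a, areas summed) of 17634. In PV with areas summed, the log2 fold changes of the 9 lay between -0.20 for Gng13 and 0.22 for Gnb4, with SEs from 0.0342 to 0.137. The median log2 fold change of the 9 was 0.01 in PV and -0.05 in Camk2a, where that of all genes was 0.01 in PV and 0 in Camk2a.

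Gng13 and Gng3 in Camk2a neurons came nearest to the threshold, with lower values in KO. The wider difference of Gnb4 in Camk2a S1 had a wide error too (-0.59, SE 0.316, edgeR adjusted p = 0.292). Gng13 encodes the gamma 13 subunit, best known from taste and olfactory signalling. Camk2a KO animals with both areas summed held 4.30 to 8.72 CPM of Gng13 with a median of 7.04 (n = 6), and WT animals 7.18 to 10.2 CPM with a median of 8.78 (n = 7). All 6 KO animals lay below the WT mean while the ranges overlapped. The log2 fold change was -0.38 (SE 0.121, edgeR adjusted p = 0.0836), with -0.43 (SE 0.125, adjusted p = 0.0911) in V1 and -0.37 (SE 0.144, adjusted p = 0.143) in S1. DESeq2 gave an adjusted p of 0.0258, a limma-voom fit with the animal as a block 0.00706 and the fit without C24 0.0445, with 0.00706 to 0.196 over 7 alternative settings and 0.0445 to 0.18 when each of the 13 animals was left out. The limma-voom fit used 1 correlation within an animal for all genes (0.33). For Gng13 the V1 and S1 libraries of an animal correlated at 0.76 within genotype, so 0.00706 takes too little account of the spread between animals.

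Gng3 was also lower. Camk2a KO animals held 164 to 291 CPM with a median of 271, and WT animals 245 to 358 CPM with a median of 314. All 6 KO animals lay below the WT mean. The log2 fold change was -0.31 (SE 0.112, edgeR adjusted p = 0.117), with -0.24 (SE 0.100, adjusted p = 0.219) in V1 and -0.36 (SE 0.115, adjusted p = 0.0831) in S1. The adjusted p was 0.0497 with DESeq2, 0.0151 with the animal as a block in limma-voom and 0.0448 without C24, with 0.0151 to 0.234 over 7 alternative settings and 0.0448 to 0.228 when each of the 13 animals was left out. For Gng3 the V1 and S1 libraries of an animal correlated at 0.86 within genotype, above the 0.33 of the limma-voom fit, so 0.0151 is too small as well. The genes that overlap these members on the opposite strand had log2 fold changes of -0.11 (SE 0.129, Chtf18, with Gng13) and -0.12 (SE 0.0536, Bscl2, with Gng3) in the same comparison, neither past the threshold. Chtf18 stood at 1.16 ± 0.264 CPM in Camk2a KO V1 (n = 6) and 1.13 ± 0.204 CPM in Camk2a WT V1 libraries (n = 8). Bscl2 stood at 88.2 ± 11.1 CPM in Camk2a KO V1 and 93.3 ± 7.77 CPM in Camk2a WT V1 libraries.

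For the remaining members the KO and WT ranges overlapped and no test passed. In PV with areas summed, Gng2, a gamma subunit used widely in the brain, held 60.4 to 79.8 CPM in KO animals and 69.6 to 84.7 CPM in WT animals (log2 fold change -0.12, SE 0.0503, edgeR adjusted p = 0.321). Gnb4, a beta subunit with a narrower distribution, held 4.48 to 8.57 CPM in PV KO animals and 4.19 to 7.94 CPM in PV WT animals (0.22, SE 0.108, adjusted p = 0.423). Gnb1 differed by 0.01 (SE 0.0383) in PV and by -0.00 (SE 0.0392) in Camk2a. Gnb5 differed by -0.02 (SE 0.0342) in PV and -0.14 (SE 0.077, adjusted p = 0.298) in Camk2a. Gng5, Gng7 and Gng12 had log2 fold changes of 0.12, 0.06 and -0.08 in PV and of 0.08, 0.21 and -0.20 in Camk2a, each with an adjusted p of at least 0.513.

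**Figure D3:**
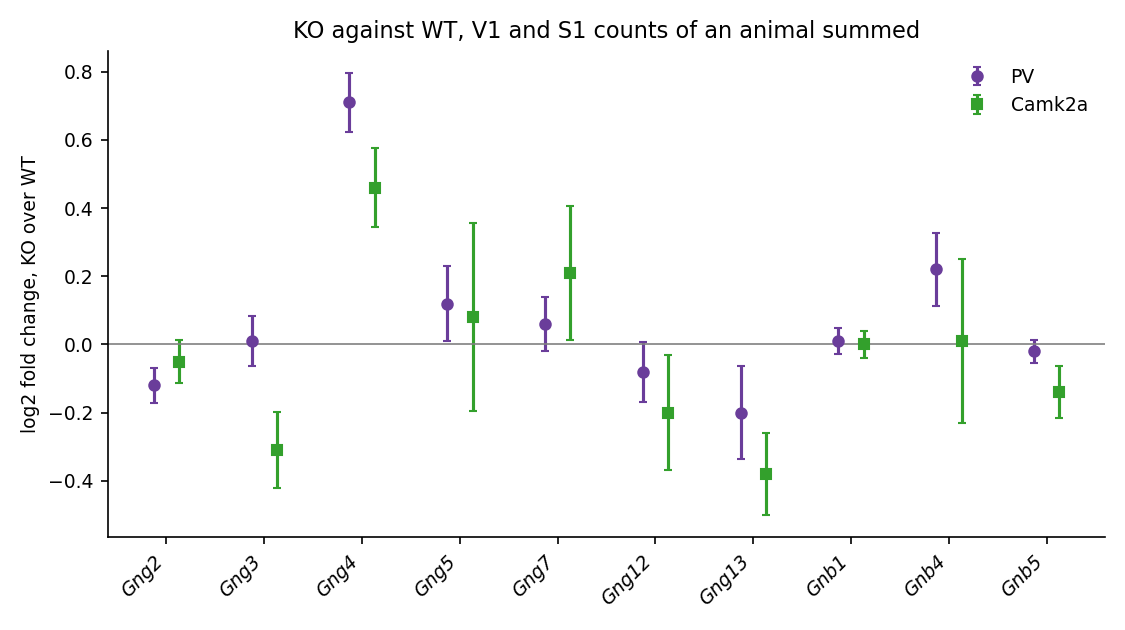
Log2 fold change of KO over WT with its SE for each member in PV (circles) and Camk2a (squares), with V1 and S1 counts of each animal summed. Gng4 is the highest point in both classes at 0.71 and 0.46, and the other members lie between -0.38 and 0.22.

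The genotype effects of the 9 members were also compared directly between classes and between areas, and 0 passed. With areas summed, PV minus Camk2a effects lay between -0.13 for Gng7 and 0.33 for Gng3 (SE 0.134, edgeR adjusted p = 0.286), and 0.832% of all genes passed. At an unadjusted p under 0.05 there was 1 member, a rule for which no share of all genes is given here. DESeq2 called 0 members and 270 of 17634 genes. For V1 minus S1 effects, 0 members in PV and 0 in Camk2a had an unadjusted p under 0.05 and DESeq2 called 0, where 0% of all genes passed. The widest of these was 0.93 (SE 0.466, adjusted p = 1) for Gnb4 in Camk2a. Gng4 had a V1 minus S1 effect of -0.30 (SE 0.249) in PV and 0.22 (SE 0.174) in Camk2a.

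All 10 members differed between PV and Camk2a neurons in KO and WT and in both areas. Of all genes, 74.3% passed in KO V1, 77.7% in KO S1, 77.3% in WT V1 and 77.2% in WT S1, so a full count among the members is to be read against that background. The libraries of the 2 classes did not overlap for 7 of 10 members in KO V1, 7 in KO S1, 6 in WT V1 and 8 in WT S1, and for 44.8% of all genes in KO V1, 48.5% in KO S1, 42.6% in WT V1 and 45.4% in WT S1. Gng5 and Gng7 were higher in PV and the other 8 were lower. Of all genes, 38.3% passed as higher in KO V1, 39.8% in KO S1, 39.8% in WT V1 and 39.1% in WT S1, and 35.9% as lower in KO V1, 37.9% in KO S1, 37.5% in WT V1 and 38.1% in WT S1. The median over the 10 was -0.56 in KO V1, -0.43 in KO S1, -0.80 in WT V1 and -0.82 in WT S1, where that of all genes was 0.02 to 0.04.

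Gng5 was a low mRNA in both classes and higher in PV than in Camk2a libraries. PV KO V1 libraries held 1.98 to 5.17 CPM with a median of 3.62 (n = 10), against 0.219 to 0.801 CPM with a median of 0.378 in Camk2a KO V1 libraries (n = 6). PV WT V1 libraries held 1.29 to 4.25 CPM (n = 10), against 0.185 to 0.669 CPM in Camk2a WT V1 libraries (n = 8). The groups did not overlap in any of the 4 comparisons, with log2 fold changes of 2.88 (SE 0.265, edgeR adjusted p = 4.34e-09) in KO V1, 2.75 (SE 0.146, adjusted p = 2.24e-13) in KO S1, 2.70 (SE 0.269, adjusted p = 1.72e-08) in WT V1 and 3.07 (SE 0.245, adjusted p = 2.35e-10) in WT S1. Of its 31-base stretches 9.39% also occurred in other genes.

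Gng7, a gamma subunit known in the striatum for pairing with the olfactory-type alpha subunit, was abundant in PV neurons. PV KO V1 libraries held 124 to 208 CPM with a median of 148, against 43.7 to 85.5 CPM with a median of 62.7 in Camk2a KO V1 libraries. PV WT V1 libraries held 112 to 179 CPM with a median of 139, against 21.0 to 85.3 CPM with a median of 51.7 in Camk2a WT V1 libraries. No PV library reached down to a Camk2a library in any of the 4 comparisons. Log2 fold changes were 1.13 (SE 0.136) in KO V1, 1.34 (SE 0.217) in KO S1, 1.23 (SE 0.190) in WT V1 and 1.32 (SE 0.166) in WT S1, with edgeR adjusted p from 8.70e-07 to 3.84e-05.

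Gnb4, Gng4, Gng2 and Gng12 were the members most biased to Camk2a neurons. Gnb4 held 2.33 to 12.6 CPM in PV WT V1 libraries, against 20.4 to 48.2 CPM in Camk2a WT V1 libraries, and its log2 fold change ran from -2.0 (SE 0.232) in WT V1 to -3.68 (SE 0.264) in WT S1. Gng4 ran from -1.84 (SE 0.215 in KO V1 and 0.147 in WT V1) to -2.72 (SE 0.154) in WT S1. Gng2 held 61.0 to 103 CPM in PV WT V1, against 201 to 259 CPM in Camk2a WT V1 libraries, and ran from -1.42 to -1.92. Gng12 ran from -1.56 to -1.91. None of these 4 members overlapped between the classes in any comparison. Of all genes, 42.6% (WT V1) to 48.5% (KO S1) did not overlap in a single comparison.

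Smaller differences of the same sign held for the rest. Gng13 ran from -0.55 to -0.85, Gng3 from -0.32 to -0.78, Gnb5 from -0.30 to -0.52 and Gnb1 from -0.27 to -0.38, and the classes overlapped for each in at least 1 comparison. The widest edgeR adjusted p among them was 0.00567, for Gng3 in KO S1. Gnb2 and Gng10, the further beta and gamma subunits tested, were lower in PV too, with log2 fold changes of -0.92 to -1.06 for Gnb2 and -2.42 to -2.72 for Gng10. Gng8, Gng11 and Gngt2 did not pass the filter on low counts in these comparisons.

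**Figure D4:**
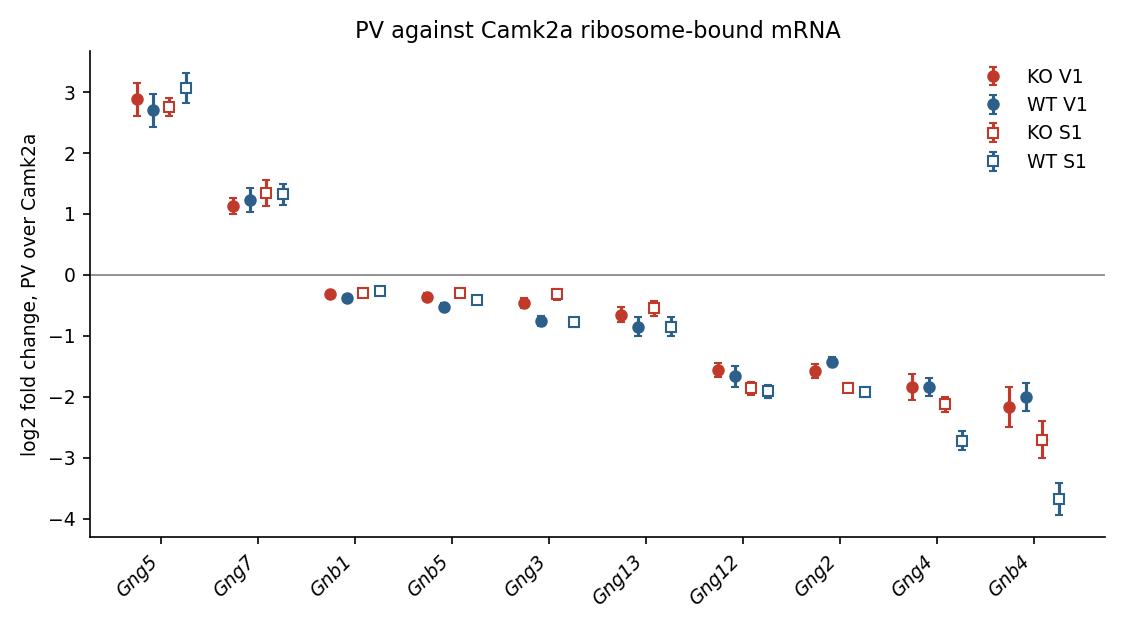
Log2 fold change of PV over Camk2a with its SE for each member in KO V1, WT V1, KO S1 and WT S1. Gng5 and Gng7 lie above 0 in all 4 comparisons and the other 8 members below it.

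Other cell types differed between these libraries as well. In WT V1, 9 of 10 oligodendrocyte, 8 of 10 microglia, 5 of 5 oligodendrocyte precursor, 7 of 11 vascular and 7 of 10 astrocyte markers passed as higher in PV. Of all genes, 39.8% passed as higher in PV there and 37.5% as lower. Summed oligodendrocyte markers stood at 399.6 to 1088 CPM in PV WT V1, against 270 to 419 CPM in Camk2a WT V1 libraries, and microglia markers at 32.6 to 58.8 CPM in PV, against 17.7 to 21.8 CPM in Camk2a. Summed astrocyte markers stood at 455 to 826 CPM in PV WT V1, against 736 to 980 CPM in Camk2a WT V1 libraries, with 2 of 10 called lower in PV. No list had a marker at 0 throughout. Their part in the Gng5 and Gng7 differences was not tested.

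In PV neurons Gnb4, Gng4 and Gng2 were V1-biased in both genotypes. In KO, 4 of 10 members passed with 7.56% of all genes, and in WT 5 of 10 with 20.6% of all genes. Gnb4 held 3.68 to 13.1 CPM with a median of 10.4 in PV KO V1, against 2.51 to 9.59 CPM with a median of 4.07 in PV KO S1 libraries. It held 2.33 to 12.6 CPM with a median of 8.43 in PV WT V1, against 1.89 to 7.59 CPM with a median of 3.11 in PV WT S1 libraries. The ranges overlapped through P9, P22 and P24. Log2 fold changes of V1 over S1 were 1.14 (SE 0.275, edgeR adjusted p = 0.0305) in KO and 1.19 (SE 0.247, adjusted p = 0.00642) in WT. These animals stood on the other area's side of the area score, which was built from expression, so values of V1 against S1 without them are conditioned on that choice and are given as a description with no test. Without these 3 animals the 8 PV KO V1 libraries held 7.64 to 13.1 CPM, against 2.51 to 4.55 CPM in the 8 PV KO S1 libraries, and the 9 PV WT V1 libraries 6.28 to 12.6 CPM, against 1.89 to 4.19 CPM in the 9 PV WT S1 libraries. The log2 fold change was then 1.62 in KO and 1.50 in WT. Among these libraries V1 and S1 did not overlap for 3 of 10 members in each genotype (Gnb4, Gng4 and Gng2), and for 3.24% of all genes in KO and 3.43% in WT.

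Gng4 showed the same area difference. Its log2 fold change of V1 over S1 was 0.63 (SE 0.172, edgeR adjusted p = 0.0375) in PV KO and 0.94 (SE 0.175, adjusted p = 0.00585) in PV WT. Without P9, P22 and P24 it was 0.87 in KO and 1.2 in WT. Those 8 PV KO V1 libraries held 13.5 to 29.8 CPM, against 8.31 to 12.4 CPM in the 8 PV KO S1 libraries, and those 9 PV WT V1 libraries 9.77 to 14.1 CPM, against 4.47 to 5.66 CPM in the 9 PV WT S1 libraries. Gng2 differed by 0.39 (SE 0.0921, adjusted p = 0.0291) in KO and 0.43 (SE 0.0894, adjusted p = 0.00642) in WT, and by 0.54 in each genotype without the 3 animals.

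Most animals gave both areas, and with the animal as a block 0 of 10 members passed in PV KO when all animals were kept, against 4 without the block. The same fit called 0 of all genes in PV KO, against 1218 without the block. The blocked log2 fold changes in PV KO were 1.18 for Gnb4 (adjusted p = 0.103), 0.62 for Gng4 (adjusted p = 0.1) and 0.37 for Gng2 (adjusted p = 0.0886). Without P9, P22 and P24 the blocked log2 fold changes were 1.71 for Gnb4, 0.92 for Gng4 and 0.55 for Gng2. In PV WT the block kept all 3 past the threshold.

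**Figure D5:**
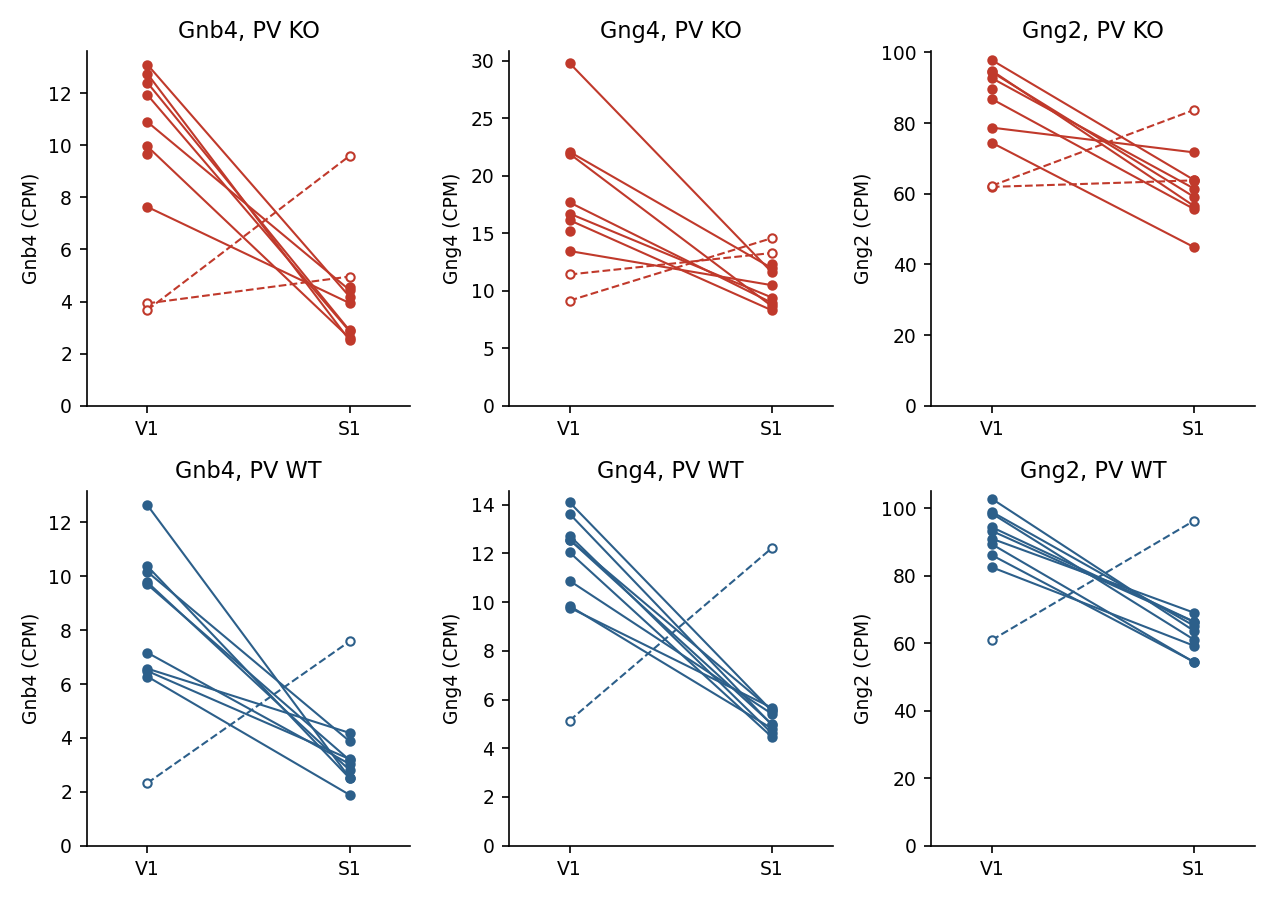
Gnb4, Gng4 and Gng2 in CPM in the V1 and S1 library of each PV animal, KO above WT, with lines joining the libraries of 1 animal. Dashed lines with open points are P9, P22 and P24. Each panel has its own scale. Unconnected points are animals with 1 library. The solid lines for Gnb4 lie higher in V1 than in S1 in both genotypes.

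The other members differed less between areas in PV. Gng12, a gamma subunit also found outside neurons, was higher in V1 by 0.34 (SE 0.113, edgeR adjusted p = 0.0383) in WT and by 0.30 (adjusted p = 0.0666) in KO, and the WT call was lost without the sex term. Gng3 differed by -0.18 in KO (adjusted p = 0.0494) and Gnb1 by -0.12 in WT (adjusted p = 0.0471), both at the edge of the threshold and lost under at least 1 other setting. Blocking on the animal brought Gng7 past the threshold in WT (adjusted p = 0.0478). Its log2 fold change was 0.28 in KO and 0.29 in WT when P9, P22 and P24 were left out. Counts of markers called between areas stand beside 20.6% of all genes called in either direction in PV WT and 7.56% in PV KO. In PV WT, 8 of 10 astrocyte, 5 of 11 vascular, 4 of 10 microglia and 5 of 10 excitatory markers were called higher in V1, and in PV KO 4 of 10 astrocyte, 1 of 11 vascular, 2 of 10 microglia and 0 of 10 excitatory markers. Of 5 oligodendrocyte precursor markers 4 were called higher in V1 in PV WT and 1 in PV KO. Of 10 oligodendrocyte markers 1 was called higher and 1 lower in PV WT, and 1 higher in PV KO. Other interneuron markers numbered 3 higher and 2 lower of 10 in PV WT, and 2 higher in PV KO, with Vip higher in both (0.98 in WT and 0.81 in KO). Of 12 PV interneuron markers 6 were called lower in V1 and 2 higher in PV WT, with a median log2 fold change of -0.17, and 4 lower and 2 higher in PV KO, with a median of -0.08. Summed PV interneuron markers stood at 9808 to 11870 CPM in PV WT V1, against 11060 to 12370 CPM in PV WT S1 libraries, and at 9896 to 11840 CPM in PV KO V1, against 10440 to 12320 CPM in PV KO S1 libraries. Summed precursor markers stood at 11.02 to 32.6 CPM in PV WT V1, against 9.92 to 19.9 CPM in PV WT S1 libraries, and at 13.5 to 28.98 CPM in PV KO V1, against 9.22 to 22.5 CPM in PV KO S1 libraries. Summed astrocyte markers stood at 455 to 826 CPM in PV WT V1, against 456 to 602 CPM in PV WT S1 libraries, and at 536 to 845 CPM in PV KO V1, against 467 to 672 CPM in PV KO S1 libraries. Summed excitatory markers stood at 1294 to 2464 CPM in PV WT V1, against 1253 to 1524 CPM in PV WT S1 libraries. Their part in the area differences was not tested.

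In Camk2a neurons 0 of 10 members passed between V1 and S1 in KO, where 13.1% of all genes passed, and 0 of 10 in WT, where 0.359% did. At an unadjusted p under 0.05 there was 1 member in KO and 1 in WT, a rule for which no share of all genes is given here. DESeq2 called 0 members in each, and 2570 of 17634 genes in KO and 1346 in WT. With the animal as a block Gng4 passed in KO (0.37, adjusted p = 8.96e-04, against 0.36 and 0.124 without it). In WT the count of all genes past the threshold was 56 with C24 and 3405 without it. C24 too was left out for its area score, so values without it are a description. Without C24 the log2 fold change of Gng3 was -0.14 in WT, and with the block as well that of Gng4 was 0.24 and that of Gnb4 -0.36.

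The genes most like Gng4 were found by the Pearson correlation of log2 CPM over 10675 genes with a mean of at least 5 CPM. Over all 69 libraries, which the difference between classes dominates, they were Gnai2 (r = 0.96) and Celf5, Slc30a3, Prr36 and Capn5 (r = 0.95 each). Gnai2 encodes an inhibitory alpha subunit. Over the 40 PV libraries with group means subtracted, where points share animals and the libraries on the other area's side weigh heavily, they were Ablim3 (r = 0.92), Celf4 and Gas7 (0.88 each), and Fscn1 and Timp2 (0.87 each).

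The partners of the dimer were examined as lists. Between KO and WT, 0 genes passed in edgeR in any of the 6 comparisons among alpha subunits, beta-gamma effectors, dimer partners and chaperones, prenylation enzymes and further beta and gamma subunits. Of all genes, 0.191% (PV V1) to 4.11% (Camk2a, areas summed) passed in edgeR. At an unadjusted p under 0.05 there were at most 2 alpha subunits, 6 effectors, 3 partners and 0 prenylation enzymes in a comparison. No share of all genes at that unadjusted rule is given here, so nothing is read from these counts. DESeq2 called at most 3 effectors and 1 partner, beside 113 (PV V1) to 1713 (Camk2a, areas summed) of 17634 genes. In PV with areas summed, 11 alpha subunits were tested and their median log2 fold change was -0.03.

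Between classes, alpha subunits differed in both directions. Of all genes in WT V1, 39.8% passed as higher in PV and 37.5% as lower. In WT V1, 3 of 11 alpha subunits were higher in PV and 8 lower. Gnal, the olfactory-type stimulatory alpha subunit, was higher by 1.34 (SE 0.0847, edgeR adjusted p = 1.53e-11) and Gna12 by 0.30 (SE 0.0592, adjusted p = 1.42e-04). Gnaz (-1.05, SE 0.0398) and Gnai1 (-1.07, SE 0.0464), of the inhibitory group, were lower, and neither overlapped between the classes, where 42.6% of all genes did not overlap. The median over the alpha subunits was -0.69, against 0.03 over all genes.

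Among 18 effectors tested in WT V1, 5 were higher in PV and 9 lower. The counts of effectors, partners and prenylation genes stand beside 39.8% of all genes passing as higher in PV and 37.5% as lower. Grk3, a receptor kinase recruited by beta-gamma, was higher by 1.64 (SE 0.0863, edgeR adjusted p = 9.23e-13), and Plcb3, a phospholipase, by 2.07 (SE 0.212, adjusted p = 2.50e-08). Adcy2, an adenylyl cyclase that beta-gamma stimulates, was lower at -2.85 (SE 0.082, adjusted p = 1.43e-16), and Plcb1 at -1.09 (SE 0.0595, adjusted p = 1.55e-12). Among 11 partners, 5 were higher and 5 lower. Pdcl, a chaperone of dimer assembly, was higher by 0.72 (SE 0.0741), and Ric8b, a chaperone of stimulatory alpha subunits, by 0.35 (SE 0.0554). Rgs7 (-1.17, SE 0.056) and Rgs6 (-2.72, SE 0.149), which pair with Gnb5, were lower. Of 6 prenylation genes, 3 were higher and 2 lower, with Fnta, a shared subunit of the prenyltransferases, at 0.72 (SE 0.0637), and Pggt1b, the subunit specific to geranylgeranyl transfer, at 0.40 (SE 0.0679). Fntb, the subunit specific to farnesyl transfer, stood at -0.43 (SE 0.0587), and Rce1, the protease of the next step, at -0.44 (SE 0.0783).

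Between areas, the counts were read against 7.56% of all genes in PV KO, 20.6% in PV WT and 13.1% in Camk2a KO. The 2 libraries of an animal entered these fits as separate. With the animal as a block 0 of all genes passed in PV KO, against 1218 without it, so the PV KO calls below were lost. In PV WT 4243 genes passed with the block and 3291 without it, and in Camk2a KO 3276 and 2058. In PV KO, 1 of 11 alpha subunits, 1 of 19 effectors, 1 of 11 partners and 0 of 6 prenylation genes passed. In PV WT these were 2 of 11, 5 of 19, 1 of 11 and 1 of 6, and in Camk2a KO 0 of 11, 4 of 18, 4 of 12 and 1 of 6. The alpha subunit genes Gnai2 (0.28, SE 0.0726, edgeR adjusted p = 0.0125) and Gna13 (0.29, SE 0.0782, adjusted p = 0.016) were higher in V1 in PV WT, and Gnai3 (0.20, SE 0.0502, adjusted p = 0.03) in PV KO. The calcium channel subunit genes Cacna1e (0.59, SE 0.162) and Cacna1b (0.23, SE 0.0699) were higher in V1 in PV WT. The SNARE protein gene Snap25 was lower in V1, at -0.16 (SE 0.0514, adjusted p = 0.0496) in PV KO, -0.24 (SE 0.0537, adjusted p = 0.00709) in PV WT and -0.45 (SE 0.0498, adjusted p = 3.37e-05) in Camk2a KO. The GIRK subunit gene Kcnj9 was lower in V1 at -0.12 (SE 0.0426, adjusted p = 0.0479) in PV WT and -0.26 (SE 0.0541, adjusted p = 0.0043) in Camk2a KO. Among partners, Gpsm1, which binds inhibitory alpha subunits, was higher in V1 by 0.17 (SE 0.0511, adjusted p = 0.0414) in PV KO and by 0.35 (SE 0.059, adjusted p = 9.70e-04) in Camk2a KO. Pdcl was lower in V1 in PV WT (-0.21, SE 0.0602, adjusted p = 0.0185). In Camk2a KO the alpha subunit chaperone gene Ric8a was higher (0.20, SE 0.0543), and Rgs6 (-0.33, SE 0.079) and Rgs7bp (-0.28, SE 0.0788), which binds R7 RGS proteins, were lower. Of the prenylation genes, Fnta was lower in V1 in PV WT (-0.28, SE 0.0592, adjusted p = 0.00642) and Icmt, the methyltransferase of the last step, in Camk2a KO (-0.19, SE 0.0477, adjusted p = 0.0128). In Camk2a WT, 0 of these genes passed in edgeR, where 0.359% of all genes did. At an unadjusted p under 0.05 there were 5 alpha subunits, 5 effectors, 2 partners and 1 prenylation enzyme, a rule for which no share of all genes is given here. DESeq2 called 1 alpha subunit, 3 effectors, 2 partners and 1 prenylation enzyme, beside 1346 of 17634 genes.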

How the data were processed

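Ribosome-bound mRNA of 69 libraries was available as gene-level estimated counts deposited by the authors, of which 71.1% were not whole. STAR, Salmon, limma and the mm10 build are named per the submitters' processing notes; their roles, versions and annotation are not given in the sources used here. Counts were rounded to whole numbers. Totals of 27.64 M to 49.11 M per library set the precision. CPM was computed from library totals, and CPM per kb used merged exons of GENCODE M21. Tests were edgeR 4.0.16 quasi-likelihood fits (R 4.3.3, TMM scaling, filterByExpr, sex as covariate, Benjamini-Hochberg adjustment over all genes tested, threshold 0.05). DESeq2 1.42.0, limma 3.58.1 voom and other scalings, filters and left-out animals were alternatives. The SE of an edgeR log2 fold change was its absolute value over the square root of the F statistic of that fit. For Gng4 between KO and WT the SE is a description of spread and no test. Scripts were tested on simulated data. Members and lists were chosen with earlier results of these data known. Named genes were the 10 members, Fmr1, up to 2 called genes per direction with the smallest p from each other list, and the 5 genes most correlated with Gng4. The check of duplicates found no pair of libraries agreeing within sampling noise. V1 and S1 libraries carry the same animal codes in their names and so are paired. The consensus correlation within an animal over all genes was 0.19 in PV and 0.33 in Camk2a. Single members differed from it, with correlations of V1 and S1 within genotype from 0.19 (Gng7) to 0.89 (Gng12) in Camk2a. In PV they ran from -0.75 (Gnb4), -0.66 (Gng4) and -0.5 (Gng2), the V1-biased members, up to 0.8 (Gng13). The 19 PV animals behind these values included P9, P22 and P24, which have libraries on the other area's side of the area score. The part of these animals in the negative values was not tested.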

Additional observations from a re-analysis of the deposited data

Results flagged for a closer look

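Of 80 combinations of a member and a group, 17 held a library that stood far from the rest of its group by Dixon's criterion. The nominal rate of that criterion is about 1 in 20 groups. The combinations share libraries and are not independent, and no share over all genes is given here. The PV WT animal P22 gave 6 of these 17. Its V1 library was low in Gng2 (61.0 CPM) and Gng4 (5.14 CPM), and its S1 library was high in Gng2 (96.4 CPM), Gng4 (12.2 CPM), Gng7 (188 CPM) and Gnb4 (7.59 CPM). The S1 library of the PV KO animal P9 was high in Gnb4 (9.59 CPM). Both libraries of P9 and P22 also lay on the other area's side of the area score.

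Among Camk2a libraries, the KO animal C3 was high in V1 in Gng2 (318 CPM) and Gnb4 (101 CPM), the S1 library of the WT animal C24 was low in Gng3 (249.7 CPM) and Gnb1 (722 CPM), and the S1 library of the KO animal C4 was low in Gng3 (147 CPM). Gnb4 was also high in the S1 library of the KO animal C7 (59.6 CPM) and the V1 library of the WT animal C16 (48.2 CPM), and Gng5 in the S1 library of the WT animal C18 (0.952 CPM). Among PV KO libraries, Gng5 was high in the S1 library of P5 (5.16 CPM) and Gnb1 low in the V1 library of P25 (593 CPM).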

How the results depend on the processing

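Counts of members past the threshold did not move beyond 1.5 times under any setting run for PV KO against WT, the differences of genotype effects, or PV against Camk2a. For Camk2a KO against WT, where 0 members passed, DESeq2 called 1 in V1, 1 in S1 and 2 with areas summed. The fits without C24 called 1 in S1 and 2 summed, and limma-voom with the animal as replicate block called 2 summed. Over all genes, the fits without C24 called 1634 of 15623 in S1, against 641 of 15691. With areas summed they called 1347 of 16711, against 688 of 16743. DESeq2 called 1713 of 17634 genes summed, and limma-voom 1948 of 16360. In these fits the counts of all genes thus rose as well. That limma-voom fit used 1 correlation within an animal for all genes, lower than that of Gng3 and Gng13. Leaving out 1 library or animal at a time gave 0 to 1 in V1, 0 to 1 in S1 and 0 to 2 summed. For V1 against S1, the replicate block called 0 in PV KO, against 4, and 1 in Camk2a KO, against 0. Over all genes it called 0 in PV KO, against 1218, and 3276 in Camk2a KO, against 2058. In PV WT, 3 members passed without the sex term and 8 with the replicate block and without P9, P22 and P24, against 5. Over all genes these fits called 2744 of 15964 and 6729 of 16013, against 3291 of 15964. In Camk2a WT, 1 passed without C24 and 4 with the replicate block as well, against 0. Over all genes these fits called 3405 of 15614 and 5263 of 15607, against 56 of 15607. The counts of members thus moved along with those of all genes. The blocked fits without animals were added after seeing the data. The V1 against S1 counts without P9, P22 and P24 or C24 are conditioned on an area score and are no test. No value past the threshold changed sign under any setting. Of 2100 values of members over all settings 76 changed sign, 0 of them of Gng4, as for Gnb4 in Camk2a V1, where the log2 fold change of KO over WT was 0.21 with all libraries and -0.04 without C3, C18 and C19. The causes were not tested. The Gng4 log2 fold changes of KO over WT stayed within 0.62 to 0.74 in PV and 0.37 to 0.53 in Camk2a, areas summed, when each animal was left out. Replacing exon by coding or no length moved 146 of 160 pool shares by more than an SD, such as Gng7 to 32.3% and Gng3 to 41.4% of the gamma sum in PV WT V1 with coding length. Low mRNAs such as Gng5 rest on few counts.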
